A study of Mus musculus with 8 samples.

Results

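Lesional dorsal skin of mice given butyrate was compared with lesional skin of mice given water, across every protein-coding gene. The comparison was defined by its samples, 2 libraries labelled SCFA and 2 labelled vehicle among those labelled atopic dermatitis, which makes 4 of the 8 libraries given. All mice were female BALB/c aged 6 to 8 weeks and ate a low-fibre diet. To induce lesions, shaved back skin was covered on 4 occasions during 2 weeks with a patch that carried 15 µg extract of house dust mites (HDM, Dermatophagoides pteronyssinus). The butyrate mice drank water with 400 mM sodium butyrate, starting 2 weeks ahead of HDM and until the end, and the vehicle mice, named CTL, drank plain water. Mice are named by the replicate numbers of their labels, lesional CTL mice 4 and 5 and lesional butyrate mice 3 and 4, and the 2 baseline CTL mice, which drank water and received no HDM, are shown beside them. The first number in the sample titles separates baseline from lesional mice and the second goes with the treatment, so that anything else these numbers mark cannot be told apart from HDM or from butyrate.

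Butyrate is a short-chain fatty acid that gut bacteria make from fibre. It acts on cells as a fuel, as a ligand of receptors such as the niacin receptor, and as an inhibitor of histone deacetylases. Mite extract carries proteases and danger signals, to which keratinocytes answer with IL-33, IL-1 and chemokines that bring in neutrophils and type 2 immune cells. Keratinocytes that leave the basal layer switch from keratins 5 and 14 to keratins 1 and 10, and then fill a cornified envelope with loricrin, late cornified envelope proteins and lipids. In injured skin this programme is replaced in part by keratins 6 and 16, small proline-rich proteins and antimicrobial proteins.

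The 4 lesional libraries held between 18004136 and 21085544 counts. The values below are CPM, each mouse's counts scaled to a common library size after TMM normalisation, and 3 counts, used as the floor, correspond to 0.143 to 0.165 CPM. As a check of the tissue, the basal keratin Krt5 was at 5566 and 4868 CPM in the CTL pair and 6088 and 6131 CPM in the butyrate pair, and Krt14 at 6105 and 4926 CPM and 4812 and 5075 CPM. Skin is a mixture of cells, and in bulk RNA fewer cells of a type and less RNA per cell cannot be told apart. Each group holds 2 numbered libraries, called mice here although the labels do not say outright that each is a separate animal, and p-values measure only the spread between them. With 2 against 2 mice the smallest exact two-sided permutation p is 0.333, so that tests were made only in models that share information across genes.

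Chemokines, cytokine receptors, receptors of myeloid cells and matrix proteases were among 22 genes that fell with butyrate, and 3 genes rose. With edgeR's quasi-likelihood test on these 4 mice, 25 of 14889 genes tested were called at a Benjamini-Hochberg false discovery rate (FDR) below 0.1 and a fold-change above 2, which is 0.168%. Of these, 22 genes (0.148%) were lower with butyrate and 3 genes (0.0201%) were higher, with fold-changes of 2.13 to 20.2. For all 25 genes both butyrate mice lay on one side of both CTL mice, as they did for 22.5% of all genes tested on the lower side and for 22.4% on the higher side. At an unadjusted p below 0.05 the shares over all genes were 6.47% lower and 6.31% higher, and these are the levels against which the gene lists below can be read. For all 22 genes that fell both butyrate mice lay under both lesional CTL mice, and for 20 of these genes they also lay above both baseline CTL mice. The share of all genes with this order was not computed, so that the count is a description only. The median log2 fold change of all genes was −0.01, and 9 in 10 genes lay between −0.75 and 0.59.

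The number of calls depended on which mice set the spread, and the fit of the 4 lesional mice was chosen with earlier results known, including that a fit of all 8 mice calls far fewer genes. In a fit of all 8 mice edgeR called 0 genes, with 731 genes at an unadjusted p below 0.05 against 1902 in the fit of 4 mice, limma-voom on all 8 mice called 1 gene (Cxcl5), and DESeq2 on the 4 mice called 369. The biological coefficient of variation was 0.154 over the 4 lesional mice and 0.270 over all 8. Leaving out lesional CTL mouse 4 gave 21 calls, of which 12 were among the 25, and leaving out lesional CTL mouse 5 gave 7, of which 4 were. Without lesional butyrate mouse 3 there were 198 calls and without lesional butyrate mouse 4 there were 670, and both sets held all 25. In these fits the spread came from the remaining pair alone, and the single mouse was taken to vary as that pair did. All 25 genes kept their direction in each of these fits. Their groups did not overlap in the 4 mice. Leaving out a mouse or adding baseline mice could therefore hardly turn a sign, and the kept direction is no separate support.

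**Figure D1:**
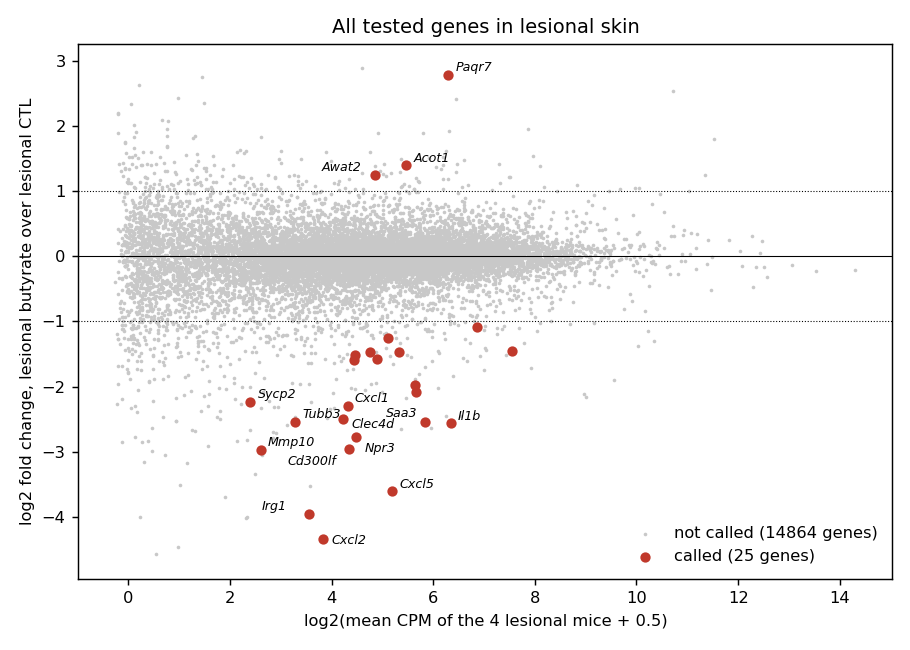
Log2 fold change of lesional butyrate over lesional CTL skin (vertical axis) against the log2 mean CPM of the 4 lesional mice with 0.5 added (horizontal axis) for 14889 genes, with the 25 called genes in red and dotted lines at a fold-change of 2. Of the called genes 22 lie below zero, down to −4.33 for Cxcl2, and 3 lie above, up to 2.78 for Paqr7.

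Chemokines that bind CXCR2, the receptor by which neutrophils enter tissue, were among the genes that fell most. Cxcl5, on the plus strand of chr5:90759360-90761624 of GRCm38, was at 64.1 and 69.5 CPM in CTL mice 4 and 5 and at 5.31 and 5.66 CPM in butyrate mice 3 and 4. The groups lay far apart, and both baseline CTL mice were close to the floor, at 0.0570 and 0.228 CPM. Cxcl5 fell 12.2-fold, with a log2 fold change of −3.60 ± 0.12 (SE) and an FDR of 0.0130, and was the only gene with an FDR below 0.05 in the fit of the 4 mice. Cxcl1, at chr5:90891241-90893115, was at 27.1 and 37.3 CPM in CTL and 6.94 and 6.24 CPM in butyrate skin and fell 4.90-fold (FDR 0.0842). These are neighbours in the same cluster of chemokine genes. Cxcl2, at chr5:90903871-90905938, was at 19.4 and 32.8 CPM against 1.62 and 0.960 CPM and fell 20.2-fold (FDR 0.0918). Cxcl3 was low in all mice, at 4.13 and 7.99 CPM against 0.689 and 0.240 CPM (log2 fold change −3.70 ± 0.59), and was not called (FDR 0.151). Ppbp, the last of the 5 ligands, was under 1 CPM in every lesional mouse. The summed level of the ligands was 115 and 148 CPM in CTL, 14.6 and 13.6 CPM in butyrate and 2.45 and 2.56 CPM in baseline CTL skin.

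Promoters of 21 of the 25 called genes were found among RefSeq sequences of GRCm38.p6, and Cxcl5, Adamts4, Csf2rb and Tmem8 had no entry. The 250 bases before the start site were searched on both strands for the NF-kappaB motif, for the AP-1 motif TGANTCA, the C/EBP motif TTGCNNAA, the STAT motif TTCNNNGAA and the TATA box TATAAA. The NF-kappaB motif was found for 2 of the 18 genes that fell and had an entry, Cxcl1 and Cxcl2, and in 7.25% of all 32851 promoters. A gene was counted if any of its promoters matched, and Il1rl1, Paqr7 and Awat2 had 2 promoters each. Counts of genes and shares of promoters are therefore unlike measures. Cxcl1, Cxcl2 and Cxcl3 held the same run of 11 bases, GGGAATTTCCC, in which matches on the 2 strands overlap, between 97 and 61 bases before the start. The promoter of Mmp10 is shown beside them because it held an AP-1 motif. That motif was found for 3 of the 18 genes, Mmp10 included, and in 6.75% of all promoters. The C/EBP motif was found for 5 of the 18 genes and for 2 of the 3 genes that rose, against 9.56% of all promoters. The TATA box was found for 4 of the 18 genes against 12.4%, and the STAT motif for 0 against 7.02%. A match describes the letters only. Sequences are given 5′ to 3′ along the gene's strand, with every motif match in capitals. The windows were chr5:90890995-90891244 for Cxcl1, chr5:90903649-90903898 for Cxcl2, chr5:90785851-90786100 for Cxcl3 and chr9:7502092-7502341 for Mmp10, all on the plus strand of GRCm38.p6. In Cxcl3 and Mmp10 the last capitals are the TATA box, and in Mmp10 the first are a C/EBP match and the middle ones the AP-1 match.
Cxcl1: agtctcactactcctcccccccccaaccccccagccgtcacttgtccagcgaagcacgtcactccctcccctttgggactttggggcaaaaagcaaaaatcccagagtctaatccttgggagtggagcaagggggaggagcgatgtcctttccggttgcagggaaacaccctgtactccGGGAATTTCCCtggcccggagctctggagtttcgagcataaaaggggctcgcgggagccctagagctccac
Cxcl2: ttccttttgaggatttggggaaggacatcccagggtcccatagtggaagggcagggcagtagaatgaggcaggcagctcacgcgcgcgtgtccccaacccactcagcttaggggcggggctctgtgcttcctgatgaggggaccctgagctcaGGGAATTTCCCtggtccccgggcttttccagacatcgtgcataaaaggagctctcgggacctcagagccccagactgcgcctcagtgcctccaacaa
Cxcl3: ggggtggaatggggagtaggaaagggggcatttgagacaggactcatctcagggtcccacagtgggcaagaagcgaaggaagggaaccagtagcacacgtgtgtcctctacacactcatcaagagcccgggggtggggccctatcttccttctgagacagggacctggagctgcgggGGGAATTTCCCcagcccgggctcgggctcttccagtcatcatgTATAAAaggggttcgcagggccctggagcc
Mmp10: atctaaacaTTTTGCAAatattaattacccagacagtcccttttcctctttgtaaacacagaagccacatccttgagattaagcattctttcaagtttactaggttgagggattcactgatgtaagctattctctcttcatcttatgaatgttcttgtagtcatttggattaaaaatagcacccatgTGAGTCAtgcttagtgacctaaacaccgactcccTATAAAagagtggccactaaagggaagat

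Genes of the interleukin-1 family and its receptors followed. Il1b, which encodes the inflammasome product IL-1β, was at 136 and 140.4 CPM in CTL and 20.5 and 26.3 CPM in butyrate skin, with baseline CTL at 4.67 and 2.62 CPM. It fell 5.90-fold (FDR 0.0613). Il1rl1, which encodes the IL-33 receptor ST2, was at 57.5 and 58.7 CPM against 21.3 and 20.8 CPM and fell 2.76-fold (FDR 0.0613). Both members of each pair were nearly alike for Il1rl1, as were the CTL mice for Il1b. The butyrate mice differed by 0.35 on the log2 scale for Il1b. The ligand Il33 was at 175 and 172 CPM against 88.7 and 77.8 CPM, a log2 fold change of −1.06 ± 0.11 that missed the threshold (FDR 0.110), and Il18rap, a chain of the IL-18 receptor, was at 31 and 23.7 CPM against 9.84 and 8.64 CPM (FDR 0.133). Of 19 members tested, 7 were lower and 2 higher at an unadjusted p below 0.05. Nlrp3, the sensor of an inflammasome, was at 13.5 and 17.7 CPM against 2.36 and 3.26 CPM (log2 fold change −2.47 ± 0.25, FDR 0.110), while Nlrp10, a skin member of the same family, was at 65 and 56.4 CPM against 149 and 88.5 CPM. Of 12 inflammasome genes 2 were lower and 2 higher at that level, with a median of −0.17.

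Receptors of type 2 and myeloid cytokines were among the called genes. Il4ra, the receptor chain shared by IL-4 and IL-13, was at 281 and 270.3 CPM in CTL and 108 and 94 CPM in butyrate skin, and fell 2.74-fold (FDR 0.0738). Baseline CTL skin was at 60.9 and 81.8 CPM. Csf2rb, the chain shared by the receptors of IL-3, IL-5 and GM-CSF, was at 165 and 151 CPM against 73.9 and 74.6 CPM and fell 2.13-fold (FDR 0.0842). Its near copy Csf2rb2 was at 113 and 97.8 CPM against 59.6 and 53 CPM and was not called (FDR 0.144), and reads of the pair may be split between them. Among 11 genes of the type 2 axis tested, 3 were lower and 1 higher at an unadjusted p below 0.05, the last being Gata3. Of 10 colony-stimulating factors and receptors 1 was higher, Il34, and 5 were lower, among them Csf3, which makes granulocytes mature, at 2.42 and 3.76 CPM against 0.344 and 0.336 CPM, and its receptor Csf3r at 121 and 141 CPM against 25 and 48.3 CPM. In the IL-17 and IL-23 axis 2 of 10 genes were lower, Il17ra and Il23a, and 1 was higher.

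The IL-6 family held several large differences that were not called. Il6 was at 11.6 and 16.6 CPM in CTL and 2.71 and 1.97 CPM in butyrate skin (log2 fold change −2.59 ± 0.29, FDR 0.117). Osm, which encodes oncostatin M, was at 10.02 and 13.2 CPM against 1.38 and 2.21 CPM (FDR 0.1248). Socs3, an inhibitor induced by these cytokines, was at 198 and 185 CPM against 86.9 and 54.2 CPM (FDR 0.153). Of 14 members 5 were lower and 0 higher at an unadjusted p below 0.05, with a median of −0.40. The IL-10 and IL-20 family was split, with 4 of 10 lower and 3 higher. Il20, an epidermal cytokine, was at 2.59 and 3.04 CPM against 0.197 and 0.0480 CPM (FDR 0.132), the butyrate mice being around the floor, while Il20rb, a chain of its receptor, was at 81 and 85.1 CPM against 140.5 and 129 CPM (log2 fold change 0.70 ± 0.10).

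CC chemokines were mixed. Of 20 tested, 4 were lower and 2 higher at an unadjusted p below 0.05, and none was called. Ccl3 was at 8.53 and 11.9 CPM in CTL and 0.738 and 1.73 CPM in butyrate skin, and Ccl4 at 6.83 and 10.4 CPM against 0.0984 and 0.960 CPM. Both draw monocytes and neutrophils. The higher ones were Ccl21a, a signal of lymphatic vessels, at 31.8 and 26.2 CPM against 65.3 and 57.7 CPM, and Ccl27a, a keratinocyte chemokine for skin-homing T cells, at 23.7 and 22.7 CPM against 38.5 and 32.4 CPM. Ccl21a belongs to a set of near-identical copies, which makes its count uncertain. The 9 other CXC, C and CX3C chemokines had Pf4 lower and Cxcl10 higher at that level. Among 21 receptors 9 were lower, such as Ccr1 at 42.1 and 48.9 CPM against 8.27 and 15.4 CPM and Cxcr2 at 58.6 and 66.5 CPM against 36.9 and 27.2 CPM, and 2 were higher.

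In the other inflammatory lists no gene was called. Of 23 TNF and NF-kappaB genes 9 were lower and 0 higher at an unadjusted p below 0.05 (median −0.38), led by Tnfaip6, a hyaluronan-binding protein, at 65.3 and 60.03 CPM against 30.6 and 21.7 CPM. Of 20 interferon-stimulated genes 7 were lower (median −0.24), among them the RNA sensors Oas2, at 53.6 and 49.9 CPM against 21.1 and 25 CPM, and Oas3, at 9.69 and 10.5 CPM against 4.18 and 4.61 CPM. The baseline CTL mice were at 48 and 74.4 CPM for Oas2, so that the butyrate mice were lower than either. Ifitm1, an interferon-induced membrane protein that was outside the list, was called, at 47.5 and 48.7 CPM against 19.6 and 20.7 CPM (FDR 0.0738). Immediate early genes of the AP-1 group had a median of −0.07 with 1 lower, Junb, and 2 higher, Egr2 and Egr3, of 18. The complement genes had 1 lower and 1 higher of 19. Prostaglandin and leukotriene genes were mixed, with 5 lower and 4 higher of 26, and the inducible cyclooxygenase Ptgs2 was at 54 and 42.1 CPM against 21.6 and 14.4 CPM (FDR 0.156). Of 12 genes of arginine metabolism the 2 lower were Odc1, the first enzyme of polyamine synthesis, at 191 and 158 CPM against 85.9 and 73.9 CPM, and Arg2, at 13.3 and 17.5 CPM against 5.17 and 5.85 CPM.

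**Figure D2:**
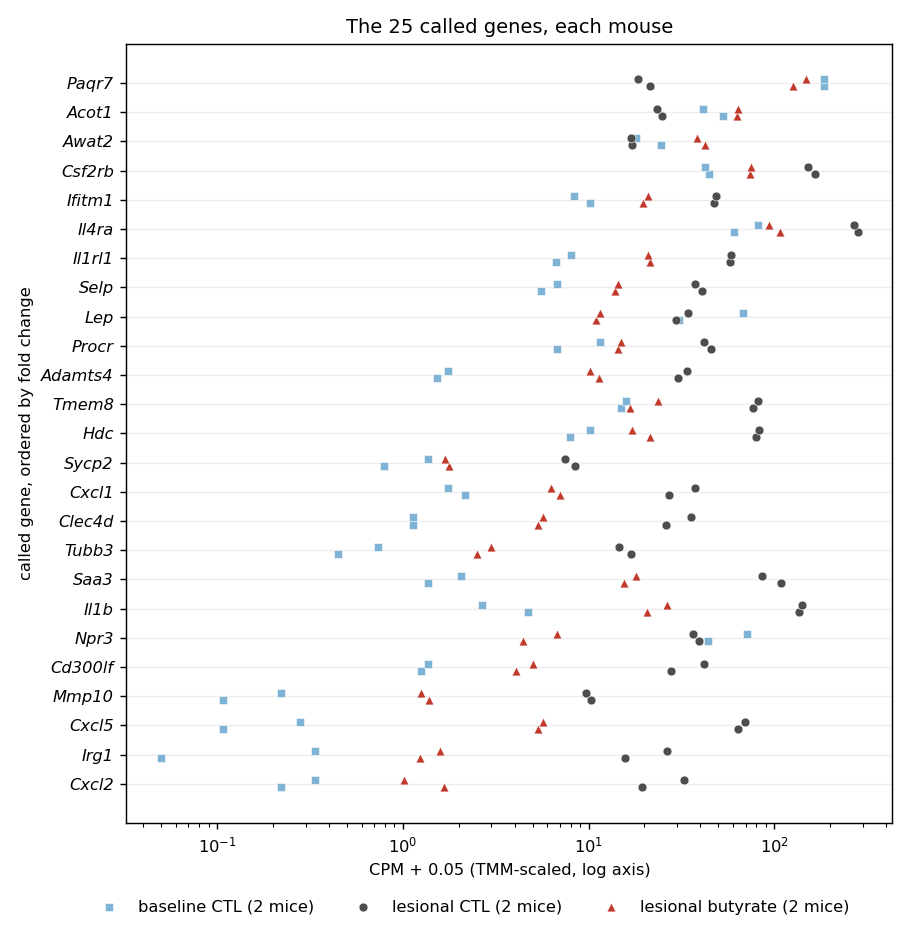
CPM with 0.05 added, on a log axis (horizontal), of each of the 25 called genes (vertical, ordered by fold-change) in each of 2 lesional CTL (black circles), 2 lesional butyrate (red triangles) and 2 baseline CTL mice (blue squares). In each gene the red and black points are apart, and for Npr3 and Lep the butyrate mice also lie below both baseline mice.

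Markers of neutrophils were lower with butyrate as a group. Of 21 markers 16 passed the filter on low counts, 15 of them were lower at an unadjusted p below 0.05 and 15 lay below both CTL mice, and their log2 fold changes had a median of −2.45 against −0.01 for all genes. Their summed level was 3117 and 2137 CPM in CTL and 852 and 449 CPM in butyrate skin, against 76.3 and 154 CPM at baseline. The members called were Clec4d, a C-type lectin of myeloid cells, at 26 and 35.6 CPM against 5.31 and 5.61 CPM (5.64-fold, FDR 0.0738), and Irg1, the enzyme that makes itaconate, also named Acod1, at 15.7 and 26.5 CPM against 1.18 and 1.54 CPM (15.5-fold, FDR 0.0842). Trem1, an activating receptor, was at 14.8 and 27 CPM against 1.72 and 1.92 CPM (FDR 0.117), and Mmp9, gelatinase B, at 165 and 91.2 CPM against 25.4 and 21.6 CPM. The alarmins S100a8 and S100a9, which keratinocytes also make in inflamed skin, varied widely between mice. S100a8 was at 1031 and 597 CPM in CTL and 273 and 105 CPM in butyrate skin, and S100a9 at 1512 and 862 CPM and 459 and 174 CPM. The groups did not overlap for either, and neither was called (FDR 0.243 and 0.286). The 5 markers that did not pass the filter were Ly6g, which defines neutrophils, Ngp, Camp, Ltf and Elane, and all were under 1 CPM in every lesional mouse. Ly6g was at 0.110 and 0.238 CPM in CTL and was not counted in the butyrate mice. These markers moved with the CXCR2 ligands, and their part in any other result was not tested.

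Receptors on the surface of myeloid cells showed the same direction. Of 32 tested, 23 were lower and 0 higher at an unadjusted p below 0.05, with a median of −1.14. Cd300lf, an inhibitory receptor, was at 27.8 and 42 CPM in CTL and 4.03 and 4.94 CPM in butyrate skin and fell 7.77-fold (FDR 0.0842). Siglece, a sialic acid receptor, was at 8.48 and 9.89 CPM against 2.31 and 2.73 CPM (FDR 0.1252), and Gp49a, an immunoglobulin-like receptor, at 76.6 and 96.5 CPM against 23.3 and 30.3 CPM (FDR 0.122), although it has a close copy in Lilrb4. Of 19 macrophage and monocyte markers 3 were lower and 0 higher (median −0.60). The lipopolysaccharide receptor Cd14 was at 40.4 and 61.5 CPM against 11 and 13 CPM, whereas lysozyme Lyz2 was at 463 and 519 CPM against 339.5 and 583 CPM and overlapped between the groups. The summed level of the macrophage list was 2154 and 2718 CPM in CTL and 1169 and 2033 CPM in butyrate skin, and the 2 butyrate mice differed by more than the group means did.

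Markers of dendritic cells and T cells held no called gene, nor did the Skint genes. Of 18 genes of dendritic cells, Langerhans cells and MHC class II 3 were lower and 1 higher, and their summed level was 2172 and 2166 CPM in CTL and 1992 and 2016 CPM in butyrate skin. Fscn1, an actin bundler of migrating dendritic cells, was at 83.5 and 74.6 CPM against 44.9 and 51.2 CPM, and Xcr1, the receptor of cross-presenting dendritic cells, at 1.05 and 1.62 CPM against 2.95 and 2.97 CPM. Of 17 T cell markers 1 was lower at an unadjusted p below 0.05, Ctla4, at 9.96 and 6.94 CPM against 4.63 and 3.69 CPM, and Foxp3, the regulator of regulatory T cells, was at 8.81 and 5.85 CPM against 5.46 and 3.69 CPM (FDR 0.467). All 17 had a negative fold change, and 14 of them overlapped between the groups. Among the Skint genes, a family of which 1 member is known to select epidermal γδ T cells, 3 of 8 were higher (median 0.71). Members of this family resemble each other closely, and their counts are uncertain.

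Hdc, the enzyme that makes histamine, was the called gene among mast cell and basophil markers. It was at 79.5 and 82.7 CPM in CTL and 21.4 and 17 CPM in butyrate skin and fell 4.23-fold (FDR 0.0613). The mast cell tryptase Tpsb2 was at 75.3 and 91.4 CPM against 58.6 and 57.9 CPM (log2 fold change −0.52 ± 0.13), and the chymase Mcpt4 was at 188 and 146 CPM against 139 and 147 CPM with groups that overlapped. Of 12 markers 4 were lower, among them Tpsb2 and the IgE receptor chain Fcer1a, and 1 was higher, the mast cell receptor Mrgprb2, at 4.79 and 5.76 CPM against 11 and 8.44 CPM.

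Antimicrobial and injury-induced epidermal genes were lower. Saa3, an acute phase protein, was at 109 and 86 CPM in CTL and 15.5 and 17.8 CPM in butyrate skin, against 1.31 and 1.99 CPM at baseline, and fell 5.84-fold (FDR 0.0613). Of 16 antimicrobial genes tested 10 were lower and 0 higher (median −1.003), among them the protease inhibitor Slpi at 18.2 and 16 CPM against 6.79 and 5.47 CPM and lipocalin Lcn2 at 186 and 173 CPM against 76.6 and 48.3 CPM, while the defensin Defb6 overlapped between the groups, at 594 and 555 CPM against 707 and 455 CPM. Of 9 injury-induced keratins and serpins 6 were lower (median −1.01), with Krt6b at 1866 and 1159 CPM against 631 and 536 CPM. Krt6a was at 2230 and 1458 CPM against 880.3 and 618 CPM and Krt16 at 1756 and 1183 CPM against 950.4 and 695 CPM, while the groups overlapped for Krt17, at 2965 and 1958 CPM against 2548 and 1754 CPM. Of 11 stefin and cystatin genes, most of them stefin A genes, which encode cysteine protease inhibitors, 7 were lower. The 1 that was higher was Cst6, a cystatin of the upper epidermis and not a stefin A gene, at 1038 and 1258 CPM against 2132 and 1550 CPM. Of 14 S100 genes 3 were lower and 1 was higher, S100a4. None of these genes but Saa3 was called.

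Genes of suprabasal keratinocytes were higher with butyrate, although none was called. Of 24 tested, 16 were higher and 0 lower at an unadjusted p below 0.05, 18 lay above both CTL mice, and the median log2 fold change was 0.90. The filaggrin gene Flg had no match among the genes counted and is not among the 24. Keratin 1 was at 1524 and 1553 CPM in CTL and 4131 and 3168 CPM in butyrate skin (log2 fold change 1.25 ± 0.22, FDR 0.162), and its partner Krt10 at 861 and 1749 CPM against 4999 and 4109 CPM (FDR 0.215). Loricrin, Lor, was at 104 and 151 CPM against 436 and 306 CPM, and corneodesmosin, Cdsn, at 267 and 315 CPM against 723 and 523 CPM. In each of these genes butyrate mouse 3 was higher than butyrate mouse 4 and both were above the CTL mice. Krt77, another keratin, differed 1.97 between the 2 CTL mice on the log2 scale, at 200.3 and 787 CPM, and was at 3202 and 2521 CPM in butyrate and 4353 and 4032 CPM in baseline CTL skin (FDR 0.256). The list was written with the study in view and is not independent evidence of its direction. The basal keratinocyte and hemidesmosome genes were near zero as a group, with a median of −0.15, but Lama3, a laminin chain of the basement membrane, was lower at 151 and 121 CPM against 73.7 and 72.6 CPM, and Krt15, a keratin of resting basal and follicle stem cells, was higher at 447 and 634 CPM against 1120 and 1085 CPM. In all 4 were lower and 1 was higher of 15 at an unadjusted p below 0.05.

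The cornified envelope families were split. At an unadjusted p below 0.05, 14 of the 21 late cornified envelope (Lce) genes tested were higher and 6 were lower. The division followed the subfamily, which was described after the values were seen. All 14 Lce1 genes had a positive fold change, with a median of 1.05 and a range of 0.53 to 2.42, and in all 14 both butyrate mice lay above both CTL mice. All 6 Lce3 genes had a negative one, with a median of −1.61 and a range of −2.33 to −1.19, and both butyrate mice lay below. Lce1k was at 14.1 and 17.3 CPM in CTL and 34.5 and 29.99 CPM in butyrate skin, whereas Lce3d was at 28.1 and 23.7 CPM against 8.56 and 5.52 CPM, and baseline CTL skin had 24.8 and 17.2 CPM of the first and 0.798 and 0.513 CPM of the second. Lce6a was at 41.6 and 54.9 CPM against 168 and 88.9 CPM. Among the small proline-rich genes the 11 Sprr2 genes tested had a median of −1.19, with 6 lower at an unadjusted p below 0.05, while Sprr1a was at 1047 and 1102 CPM against 1370 and 1037 CPM and overlapped, and Sprr4 was higher, at 143 and 231 CPM against 500.2 and 283 CPM. Over the 14 members tested the median was −1.03. Members of these families are close copies, so that reads may be split between neighbours.

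**Figure D3:**
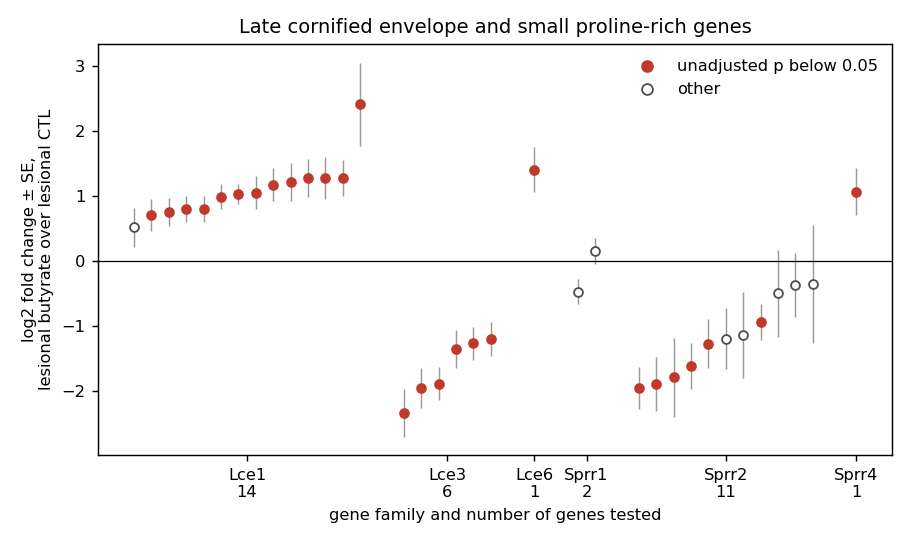
Log2 fold change of lesional butyrate over lesional CTL skin with its SE (vertical axis) for each late cornified envelope and small proline-rich gene tested, by family (horizontal axis, with the number of genes), red where the unadjusted p is below 0.05. The 14 Lce1 genes lie between 0.53 and 2.42 and the 6 Lce3 genes between −2.33 and −1.19.

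Junction, protease and growth factor genes of the epidermis were mixed. Of 30 desmosome, tight junction and gap junction genes 8 were higher and 3 lower (median 0.20). Desmoglein Dsg1a was at 374 and 415 CPM in CTL and 837 and 680.5 CPM in butyrate skin. Claudin Cldn23 was at 3.91 and 6.52 CPM against 16.8 and 12.8 CPM. The 3 lower genes were Gjb2, Gjb6 and Dsg3, with log2 fold changes of −1.71, −1.53 and −0.46. The fall of Gjb2 was the largest difference of the list in either direction. Of 16 kallikreins and inhibitors 2 were higher and 1 lower. Spink5, the inhibitor whose loss causes Netherton syndrome, was at 439.7 and 495 CPM against 1111 and 769 CPM (FDR 0.215). Among ligands of the EGF receptor amphiregulin, Areg, was at 31.9 and 21.7 CPM against 11.6 and 6.05 CPM. Epiregulin, Ereg, was at 32.7 and 42.4 CPM against 158 and 58.4 CPM, with butyrate mouse 3 well above mouse 4. These were the 1 lower and 1 higher of 10 EGF ligands and receptors at an unadjusted p below 0.05. Among 18 itch and nerve guidance genes 5 were lower and 5 higher. Nppb, a natriuretic peptide that carries itch signals in sensory neurons, was at 18.1 and 15.8 CPM against 6.25 and 4.61 CPM, and Sema3d, which repels axons, at 12.2 and 24.7 CPM against 44.2 and 45.1 CPM. Tubb3, a tubulin best known from neurons, was called, at 17 and 14.6 CPM against 2.46 and 2.93 CPM (5.83-fold lower, FDR 0.0738).

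The 3 genes that rose were Paqr7, Acot1 and Awat2. Paqr7, a membrane receptor of progestins, was at 21.4 and 18.4 CPM in CTL and 126 and 148 CPM in butyrate skin, and rose 6.89-fold (log2 fold change 2.78 ± 0.14, FDR 0.0593). The butyrate mice lay below the baseline CTL mice, which were at 185 and 184 CPM. Acot1, a cytosolic acyl-CoA thioesterase, was at 24.9 and 23.4 CPM against 62.8 and 64.1 CPM and rose 2.63-fold (FDR 0.0613). Baseline CTL skin was at 52.6 and 41.4 CPM, and the close copy Acot2, with which reads may be shared, was at 6.44 and 6.18 CPM in CTL and 5.95 and 7.39 CPM in butyrate skin. Awat2, a wax synthase of sebaceous glands, was at 17 and 16.9 CPM against 42.4 and 38.3 CPM and rose 2.38-fold (FDR 0.0842), and both butyrate mice were above the baseline CTL mice at 24.5 and 17.9 CPM.

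Several lipid lists held genes that were higher by small amounts. Of 32 ceramide and acylceramide genes 10 were higher and 0 lower at an unadjusted p below 0.05, and 25 had a positive fold change (median 0.24). The sphingomyelinase Smpd1 was at 69.97 and 69.8 CPM in CTL and 114 and 93.7 CPM in butyrate skin, and Sptlc3, a subunit of the enzyme that starts sphingolipid synthesis, at 43 and 45 CPM against 87.9 and 63.7 CPM. Of 24 genes of fatty acid synthesis, elongation and desaturation 9 were higher and 1 lower (median 0.22), with the elongase Elovl6 at 756 and 545 CPM against 1455 and 1242 CPM and ATP citrate lyase, Acly, at 294 and 363 CPM against 503 and 566 CPM. The desaturase Scd1 overlapped, at 5061 and 5751 CPM against 5009 and 6212 CPM. Of 17 sebaceous gland genes 7 were higher and 0 lower, and of 23 cholesterol synthesis genes 3 were higher and 0 lower, led by Dhcr7, the last step of the pathway, at 68.8 and 70.6 CPM against 110.2 and 99.2 CPM. Awat2 was the member of these lists that was called.

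Genes of energy metabolism differed by small amounts as groups. Of 39 fatty acid oxidation and ketone body genes 4 were higher and 0 lower (median 0.10), and besides Acot1 the smallest p was that of the peroxisomal thiolase Acaa1b, at 17.7 and 17.2 CPM against 31.3 and 31 CPM. The 80 respiratory chain and ATP synthase genes had a median of −0.09, and 61 had a negative fold change. In 39 both butyrate mice lay below both CTL mice and in 9 above, against 22.5% and 22.4% of all genes tested. At an unadjusted p below 0.05, 2 were lower and 1 higher. The higher one was Ndufa4l2, a hypoxia-responsive relative of a complex subunit, at 36.4 and 43.4 CPM against 119 and 92 CPM (FDR 0.138). Glycolysis had 3 higher and 2 lower of 20. Of 14 butyrate receptors and monocarboxylate transporters 3 were lower and 0 higher, with Slc16a6 at 86.7 and 76.1 CPM against 48.9 and 48.7 CPM and the lactate exporter Slc16a3 at 64.2 and 64.7 CPM against 40.3 and 46.2 CPM. The niacin and butyrate receptor Niacr1, also named Hcar2, was at 70.9 and 66.7 CPM against 74.5 and 47 CPM (log2 fold change −0.18 ± 0.23, FDR 0.821), and the lactate receptor Gpr81 at 5.18 and 4.80 CPM against 6.15 and 10.5 CPM. The 12 entries for histone deacetylases, in which Hdac4 stands under 2 identifiers, lay between −0.41 and 0.30, and 1 was higher, Hdac5, at 72.5 and 77.9 CPM against 92 and 93.3 CPM.

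Matrix-degrading enzymes were among the genes that fell. Mmp10, stromelysin 2, was at 10.3 and 9.61 CPM in CTL and 1.33 and 1.20 CPM in butyrate skin and fell 7.84-fold (FDR 0.0613). Adamts4, an aggrecanase, was at 30.4 and 33.7 CPM against 11.3 and 10.1 CPM and fell 3.0-fold (FDR 0.0826). Of 40 matrix metalloproteinases, Adamts proteases and their inhibitors 15 were lower and 3 higher (median −0.43), Mmp3 being at 194 and 184 CPM against 58.2 and 84.8 CPM. Among 21 matricellular proteins 5 were lower and 1 was higher. Tenascin C, Tnc, was at 960.0 and 716 CPM in CTL, 161 and 213 CPM in butyrate and 47.8 and 32.8 CPM in baseline CTL skin (log2 fold change −2.16 ± 0.23, FDR 0.117), and osteopontin, Spp1, at 24.7 and 28 CPM against 11 and 11.6 CPM (FDR 0.122). The collagens had 7 lower and 4 higher of 36, and Col3a1 was at 3007 and 3641 CPM against 1122 and 3513 CPM, with 1 butyrate mouse at the level of CTL. Fibroblast markers had a median of −0.20 with 1 of 14 higher, S100a4.

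Endothelial adhesion molecules that slow leukocytes were lower. Selp, P-selectin, was at 40.8 and 37.4 CPM in CTL and 13.8 and 14.4 CPM in butyrate skin and fell 2.77-fold (FDR 0.0738), and E-selectin, Sele, was at 32.5 and 24.4 CPM against 10.2 and 9.88 CPM (FDR 0.135). Procr, the protein C receptor of endothelium and other cells, was at 45.5 and 41.8 CPM against 14.3 and 14.9 CPM and fell 2.99-fold (FDR 0.0613). The general marker Pecam1 was at 139 and 129 CPM against 84.5 and 114 CPM. Of 18 endothelial genes 5 were lower and 0 higher (median −0.41).

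Lep, which encodes the adipocyte hormone leptin, and Npr3, the clearance receptor of natriuretic peptides, fell to values under those of both baseline CTL mice. Lep was at 29.4 and 34.2 CPM in CTL, 10.9 and 11.4 CPM in butyrate and 30.5 and 67.5 CPM in baseline CTL skin, and fell 2.85-fold between the lesional groups (FDR 0.0842). Of 15 adipocyte genes tested 2 were lower, Lep and Plin4, 1 was higher, and 11 had a positive fold change (median 0.22). Npr3 was at 39.5 and 36.3 CPM, 4.38 and 6.67 CPM and 44 and 71 CPM in the same order, and fell 6.85-fold (FDR 0.0738). No test was made against baseline skin. The other called genes were Sycp2, a protein of meiotic chromosomes, at 8.42 and 7.37 CPM against 1.72 and 1.63 CPM (FDR 0.0958), and Tmem8, at 76.3 and 82 CPM against 16.6 and 23.6 CPM (FDR 0.0958).

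**Figure D4:**
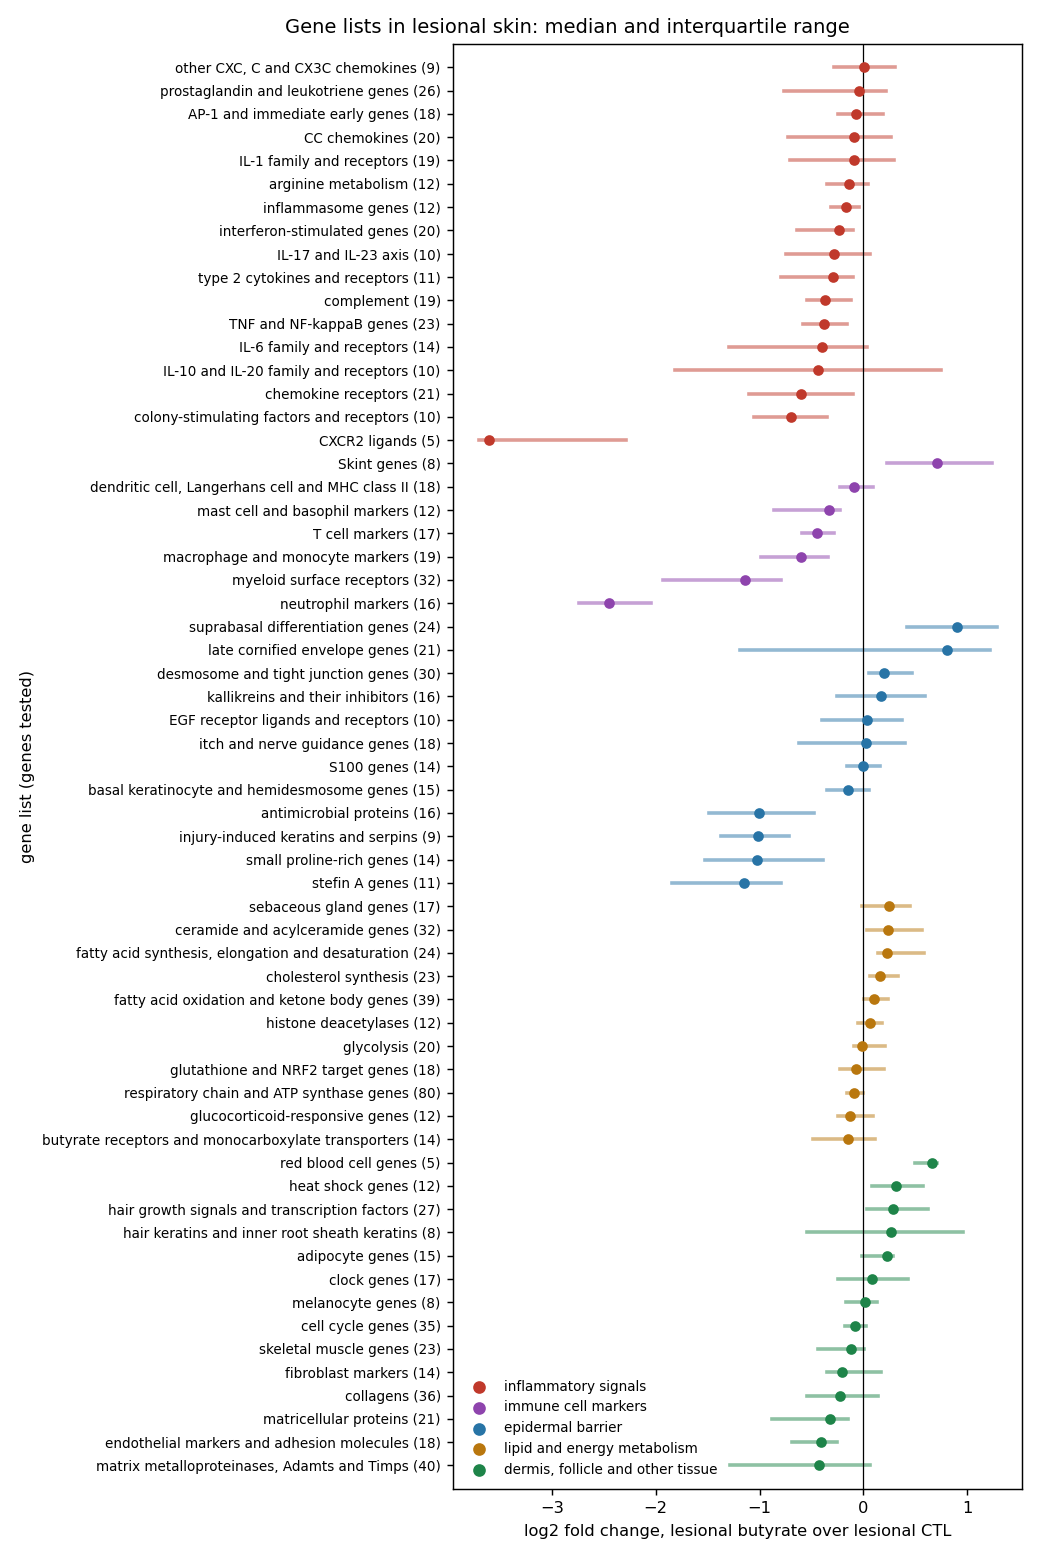
Median log2 fold change of lesional butyrate over lesional CTL skin (points) and interquartile range of the members (lines) on the horizontal axis, for each gene list with at least 5 genes tested, coloured by theme, with the number of genes tested in brackets. CXCR2 ligands (−3.60) and neutrophil markers (−2.45) lie farthest to the left and suprabasal differentiation genes (0.90) farthest to the right.

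Growth signals of the hair follicle were in part higher, while hair shaft genes were near the floor. Of 27 hair growth signals and transcription factors 10 were higher and 1 lower (median 0.28). Wnt3 was at 25.2 and 28.9 CPM in CTL and 52.9 and 52.6 CPM in butyrate skin (FDR 0.132), and Hoxc13, which drives hair keratins, at 7.32 and 6.04 CPM against 15.4 and 14.2 CPM. Of 23 hair and inner root sheath keratins 8 passed the filter on low counts, and 2 of these were higher, Krt28 and Krt75. Of 52 hair keratin-associated proteins 1 passed it, Krtap3-2, at 0.330 and 0.523 CPM against 1.72 and 0.912 CPM. Melanocyte genes had 1 higher and 0 lower of 8, the higher one being Sox10, at 7.16 and 9.85 CPM against 13.3 and 13.9 CPM.

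Genes that were not called included many with groups well apart. Among the 15 higher genes with the smallest p were Cobl, an actin nucleator, at 30.3 and 33.9 CPM against 65.4 and 66 CPM (log2 fold change 1.03 ± 0.11, FDR 0.110), and Il12rb2, a chain of the IL-12 receptor, at 7.76 and 8.66 CPM against 21.2 and 24 CPM (FDR 0.111). Baseline CTL skin was at 8.26 and 7.07 CPM of Il12rb2, so that the butyrate mice were above both other groups. Also among them were Cyp2e1, a cytochrome P450, at 76.8 and 94.4 CPM against 247 and 210.2 CPM, Cyp2j6, at 22 and 24.1 CPM against 45.4 and 40.9 CPM, Aldh3a1, at 31.6 and 38 CPM against 66 and 71.9 CPM, and Pon1, at 2.09 and 2.81 CPM against 9.74 and 7.87 CPM. The others were Tmem164, Muc15, Nxph4, C130079G13Rik and 1110057K04Rik, besides Wnt3, Ndufa4l2, Ccl21a and Acaa1b, with FDRs of 0.110 to 0.141 over the 15. Among the 15 lower genes were Fgf23, a hormone of phosphate balance, at 20.5 and 17.5 CPM against 4.82 and 3.26 CPM, Soat2, which esterifies cholesterol, at 4.95 and 4.76 CPM against 0.935 and 0.816 CPM, and Slfn2, a regulator of lymphocyte quiescence, at 54.3 and 54.5 CPM against 27.3 and 29.7 CPM. Serpina3b, of an expanded serpin family, was at 41 and 43.4 CPM against 17.2 and 20.6 CPM, and Dmxl2 at 32.2 and 35.1 CPM against 17 and 15.7 CPM. For Serpina3b baseline CTL skin was higher than any lesional mouse, at 149.9 and 132 CPM. The rest of the 15 were Il33, Nlrp3, Trem1, Tnc, Oas2, Il6, Spp1, Gp49a, Osm and Siglece, given above, with FDRs of 0.110 to 0.1254.

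Genes that were nearly absent from butyrate skin were few. With a mean of at least 1 CPM in one group and at most 3 counts in every mouse of the other, 4 genes qualified, all of them present in CTL. Reg3g, an antimicrobial lectin, had 26 and 23 counts in CTL and 2 and 1 counts in butyrate mice, a ratio of 17.2 (95% interval 5.54 to 86.1). Psg18 had 24 and 29 counts against 3 and 3, a ratio of 9.28 (3.99 to 26.4), and Ptprn, a protein of secretory granules, 25 and 15 against 3 and 3, a ratio of 7.0 (2.95 to 20.2). For 9830107B12Rik the counts were 11 and 65 against 0 and 3, a ratio of 26.6 (8.77 to 132). The genes were chosen for these counts, so the ratios are a description and no test, and the exact intervals cover counting error only, and edgeR called none of the 4 genes.

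The 2 butyrate mice differed more from each other than the 2 CTL mice did. Among genes with a mean of at least 1 CPM in the group, 461 of 14066 (3.28%) lay more than 2-fold apart between the butyrate mice and 94 of 14109 (0.666%) between the CTL mice, on the scale of log2(CPM + 0.5). Butyrate mouse 4 had more red blood cell RNA, with a summed level of 71.2 and 268 CPM in butyrate mice 3 and 4 against 88 and 123 CPM in CTL mice 4 and 5. Its fibroblast, complement, macrophage and skeletal muscle genes were also above those of mouse 3, with median log2 differences of 0.90, 0.88, 0.81 and 0.87, whereas its small proline-rich genes, kallikreins and late cornified envelope genes were below, at −0.85, −0.81 and −0.59. The summed level of skeletal muscle genes was 20991 and 39145 CPM in butyrate mice 3 and 4, 26853 and 37248 CPM in CTL mice 4 and 5 and 65967 and 76177 CPM in the baseline CTL mice, with 1 of 23 lower at an unadjusted p below 0.05. Genes farthest apart between the butyrate mice were Nmrk2, at 1.33 and 10.9 CPM, Tceal7, at 4.82 and 28.4 CPM, Myoz3, at 2.51 and 15.2 CPM, and Col6a6, at 3.05 and 16.5 CPM, all higher in mouse 4, and the cytokine Il19, at 14.2 and 2.59 CPM. Between the CTL mice Il19 was also among the genes farthest apart, at 58.3 and 11 CPM, with Retnla at 41.6 and 261 CPM, Chi3l4 at 19.6 and 3.85 CPM, Adh6a at 4.13 and 20.8 CPM and Krt77. The part of these cell mixtures in the differences between the groups was not tested.

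**Figure D5:**
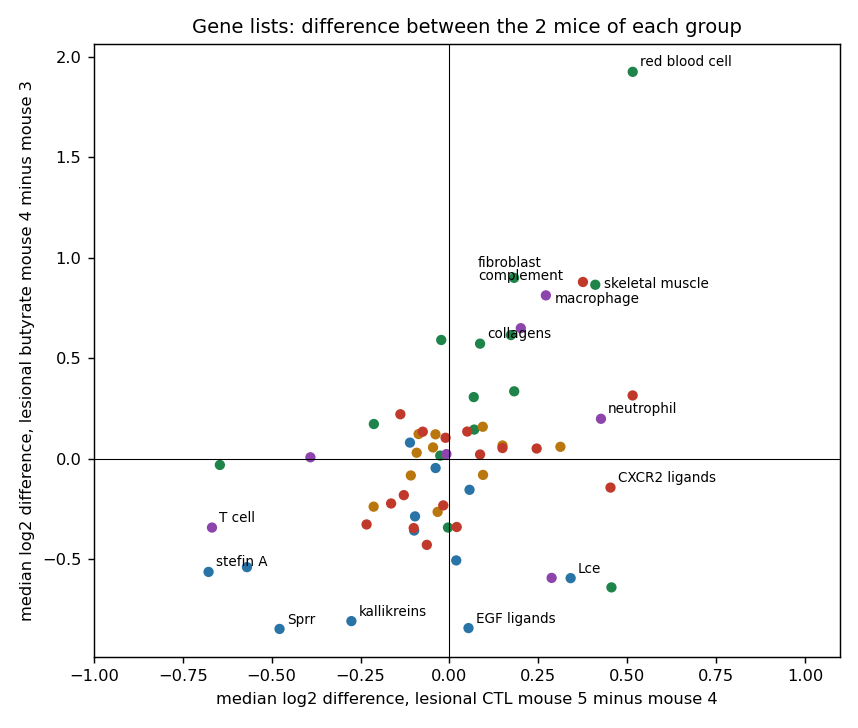
Median log2 difference of each gene list with at least 5 genes tested between lesional CTL mouse 5 and mouse 4 (horizontal axis) and between lesional butyrate mouse 4 and mouse 3 (vertical axis), coloured by theme as in the plot of list medians. The red blood cell genes lie highest, at 1.93 between the butyrate mice and 0.52 between the CTL mice.

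Of 20 genes that the study's account of mouse skin names, 19 were tested, 18 had groups that did not overlap and 3 were called, Il1b, Cxcl1 and Il4ra. Over all genes tested the groups did not overlap for 22.5% on the lower side and 22.4% on the higher side. Those genes were named in a study that used these samples, and their count is not taken as independent evidence. The study also measured genes of this kind by quantitative RT-PCR in lesional skin, with more mice per group, and those measurements were not used here. The other 22 called genes lay outside that set, and 18 of the 25 belonged to at least 1 of the 63 gene lists. The lists held 1122 of the 14889 genes tested. They were written with earlier results of these data known, so that the 18 is a description only.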

How the data were processed

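RNA of dorsal skin was sequenced from 8 mice, and the series' design text lists 16 samples. The authors deposited raw counts per gene for 22740 protein-coding genes (TruSeq libraries, Illumina HiSeq, RNASik, STAR 2.5.2 onto GRCm38, featureCounts, reverse-stranded). The 4 lesional mice were compared in edgeR 4.0.16 (R 4.3.3): filterByExpr (minimum count 10), TMM scaling and the robust quasi-likelihood test with 2 residual degrees of freedom. Log2 fold changes use a prior count of 0.125. Calls needed a fold-change above 2 together with an FDR (Benjamini-Hochberg) below 0.1. CPM is not divided by gene length, so that genes cannot be compared with each other. Tests were checked on counts simulated for lesional butyrate against lesional CTL. In these edgeR called 192 of 200 changed genes among 14889, with 14 wrong calls. The changed genes had a mean above 1 CPM and all had the same fold-change, up or down, which was larger than the threshold of 2. These numbers describe only the differences put into the simulation. The share of real differences that was called was not tested. Trem1, Osm and Nlrp3, with log2 fold changes of −3.52, −2.69 and −2.47 between the lesional groups, were not called. limma 3.58.1, DESeq2 1.42.0, other scalings, filters and sets of mice were alternatives.

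Genes were named by rule: all called genes, the 15 higher and 15 lower uncalled genes of smallest p with groups apart and a mean of at least 1 CPM, the 4 genes of smallest p (at least 1 CPM) and the highest gene in each of 63 lists, every member of lists with under 8 genes tested, genes at or under 3 counts in every mouse of a group and at least 1 CPM in the other, and the 5 genes farthest apart within each pair (at least 5 CPM). Acot2, Camp, Elane, Il34, Krt14, Krt16, Lce6a, Lilrb4, Ltf, Ly6g, Ngp, Niacr1 and Sprr4 fell outside it and were named after their values were seen. Dsg3, Gjb2 and Gjb6 were also named in this way. The members, the lists and the fit of the 4 lesional mice were chosen with earlier results of these data known, and 16 list symbols had no match. Coordinates are of GENCODE vM21, and promoters of RefSeq.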

Additional observations from a re-analysis of the deposited data

How the results depend on the processing

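The 25 calls (22 lower and 3 higher) became 0 in a fit of all 8 mice (0 lower, 0 higher), 189 in a fit without the baseline butyrate mice (138 and 51), 41 with library size scaling (35 and 6), 58 with no filter on low counts (49 and 9), 14 with limma-voom on 4 mice (12 lower), 1 with limma-voom on all 8 mice (1 lower, 0 higher), 369 with DESeq2 (265 and 104) and 1 at an FDR below 0.05 (1 lower, 0 higher). With a mouse left out they ranged from 7 to 670, of which 5 to 487 were lower and 1 to 183 higher. The fit without the baseline butyrate mice held 24 of the 25, without Lep, and a filter at 1 CPM held 22, without Cxcl2, Sycp2 and Tmem8. All 25 genes kept their direction under each alternative, which the lack of overlap between their groups made nearly certain beforehand. With DESeq2 size factors, another prior count or no robust estimation the same 25 genes were called. Genes apart within a pair numbered 54 (CTL) at 5 CPM, and 553 (CTL) and 1866 (butyrate) at more than 1.5-fold.

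Leaving out a mouse turned the sign of 15 of 172 genes named here and tested. None of the 15 was called, and called genes could hardly be among them because their groups did not overlap. The other genes tested, among them Dsg3, Gjb2 and Gjb6, were not tabulated in this way, and the cause was not tested. The log2 fold changes ranged from −0.0716 to 0.23 for Acot2, −1.56 to 0.0799 for Col3a1, −1.99 to 0.43 for Col6a6, −0.34 to 0.31 for Defb6 (−0.0181 with limma-voom on 4 mice and −0.0182 on all 8 mice), −0.30 to 0.00508 for Krt14, −0.49 to 0.14 for Krt17, −0.52 to 0.25 for Lyz2, −0.22 to 0.11 for Mki67, −2.43 to 0.15 for Myoz3, −0.55 to 0.13 for Niacr1, −2.56 to 0.46 for Nmrk2, −2.40 to 0.26 for Retnla, −0.10 to 0.20 for Scd1, −0.0517 to 0.36 for Sprr1a and −2.31 to 0.23 for Tceal7. No paired analysis was made, because the labels do not pair mice of the lesional groups. Both groups hold a replicate number 4, but the labels do not say that equal numbers mark a pair. With 2 mice a group and a floor of 3 counts, differences in genes near the floor in both groups could have been missed at this depth.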

Other observations

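The lists of cell cycle, heat shock, metallothionein, glucocorticoid-responsive, NRF2 target and clock genes held no called gene. The 35 cell cycle genes had a median log2 fold change of −0.08, and the proliferation marker Mki67 was at 225 and 185 CPM in lesional CTL mice 4 and 5 and 175 and 222 CPM in lesional butyrate mice 3 and 4, against 147 and 143 CPM in baseline CTL mice. All 12 heat shock genes had a positive fold change (median 0.31), and 4 were higher at an unadjusted p below 0.05 in edgeR. The small chaperone Hspb1 was at 80.7 and 108 CPM in CTL and 184 and 153 CPM in butyrate skin, below the baseline CTL mice at 231 and 268 CPM. Metallothioneins, which bind zinc and copper, were split. Mt1 was at 210.3 and 349 CPM against 131 and 129 CPM and Mt2 at 286 and 442 CPM against 166 and 162 CPM, while Mt4, the form of differentiating squamous epithelium, was at 0.385 and 1.09 CPM against 2.85 and 4.89 CPM and at 28.6 and 34.7 CPM at baseline. Of 12 glucocorticoid-responsive genes, Mt1 and Mt2 were the 2 that were lower at an unadjusted p below 0.05.

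Among 18 glutathione and NRF2 target genes 1 was lower, the cystine transporter subunit Slc7a11, at 32.2 and 32.8 CPM against 11.7 and 4.37 CPM, and 2 were higher, Gsta2 at 1.21 and 1.38 CPM against 3.64 and 3.02 CPM and Gstm1 at 63 and 88 CPM against 102 and 126 CPM. Of 17 clock genes 3 were higher and 2 lower, with Bhlhe41, a repressor of the clock, at 13.8 and 12.6 CPM against 19.4 and 25.6 CPM and Nr1d2 at 115 and 109 CPM against 90.3 and 95.2 CPM. Time of collection was not used here.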
